A study of Homo sapiens with 6 samples.

Results

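The 49 genes described here encode proteins of autophagy and of the lysosome. They were chosen by name among the protein-coding genes of an RNA-seq table of 58735 genes, and all 49 were found in it. By role they comprise 28 genes of the autophagy machinery and its cargo receptors, 3 transcription factors of the MiT/TFE family and 18 genes of lysosomal membrane proteins and lysosomal enzymes. The RNA came from MG63, an established human osteosarcoma cell line, and the study asked which genes change when FUBP1, a single-stranded DNA-binding protein that regulates transcription, is knocked down. The siFUBP1 group (3 samples) was transfected with small interfering RNA (siRNA) against FUBP1, and the siMock group (3 samples) with a negative control siRNA. Both groups were therefore transfected cells of the same line, collected after 48 h, and no other treatment is named for them. Which of the study's FUBP1 siRNAs was sequenced is not given in the sources used here, and the labels do not say whether the 3 samples of a group came from separate cultures, so that the p-values measure the spread between these samples, which may be technical.

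In macroautophagy a kinase complex built around ULK1 starts a membrane sac, a lipid kinase complex containing BECN1 makes it grow, and an ubiquitin-like conjugation pathway attaches ATG8 proteins (the LC3 and GABARAP subfamilies) to its lipids. Receptors such as SQSTM1 tie cargo to the ATG8 proteins, and the closed autophagosome fuses with a lysosome, where acid hydrolases degrade its content. The MiT/TFE factors TFEB, TFE3 and MITF bind a palindromic E-box, TCACGTGA in its strict form, in the promoters of many lysosomal and autophagy genes.

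The knockdown was read from FUBP1 itself, which was at 237, 255 and 274 CPM in the siMock samples and at 44.3, 43.4 and 53.0 CPM in the siFUBP1 samples. The knocked-down samples thus held 18.4% of the siMock level, with no overlap. CPM here is a count normalized to its library size with TMM factors. The libraries held 16309900 to 17484313 counts each. The labelled cell type was checked against 10 osteoblast and mesenchymal markers, of which only 3 (COL1A1, VIM and RUNX2) passed the filter on low counts. COL1A2 and IBSP had a count of 0 in all 6 samples, which allows up to 3 counts per sample, ALPL had at most 1 count and SPARC at most 5. Of the 6 epithelial markers, the keratins KRT8 and KRT18 had 16128 to 34970 and 7498 to 12282 counts. The others were lower, with CLDN4 at 183 to 536, EPCAM at 59 to 83, CDH1 at 8 to 22 and KRT19 at most 3 counts. The marker profile thus goes against the labelled cell type for COL1A2, IBSP, ALPL, SPARC and the keratins KRT8 and KRT18, and the epithelial list itself is mixed. The summed level of the 6 epithelial markers, mostly that of KRT8 and KRT18, was 2445 to 2831 CPM in siMock and 1449 to 1542 CPM in siFUBP1 (CPM by total counts, also below). For the osteoblast and mesenchymal list the sums were 246 to 264 CPM against 243 to 268 CPM, with COL1A1 lower (1692 to 2000 against 769 to 792 counts), VIM higher (2312 to 2589 against 3146 to 3731 counts) and RUNX2 higher (6 to 8 against 39 to 97 counts) in siFUBP1. The sums were, for 6 leukocyte markers 3.80 to 4.86 CPM against 2.67 to 3.82 CPM, and for 5 endothelial markers 3.07 to 5.03 CPM against 2.00 to 2.87 CPM. Mitochondrial genes took 5.60 to 6.59% of the counts in siMock and 3.98 to 4.88% in siFUBP1. The part of these markers and shares in the results was not tested, and in bulk RNA fewer cells of a type and less RNA per cell cannot be told apart.

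All 49 genes passed the filter on low counts and were tested. With edgeR's quasi-likelihood test and Benjamini-Hochberg adjustment over 16116 genes, 21 were higher in siFUBP1, 17 were lower and 11 did not pass an adjusted p of 0.05. The 38 genes past the threshold are 77.6% of the list, and 60.2% of all genes tested were past it, 30.1% in each direction. Among the 12662 protein-coding genes tested the share was 65.3%. The median log2 fold change of the 49 genes was 0.03, against 0.00 for all genes tested, and the median size of the change was 0.44 in both. Beyond 2-fold, ATG4C was the only gene that rose and 4 genes fell (MCOLN1, NPC2, CTSK and GABARAPL2), against 8.16% of all genes rising and 9.13% falling that far. A change of at least 1.5-fold was found for 15 genes, 6 higher and 9 lower, and for 35% of all genes. No overlap between the groups was seen for 38 of the 49 genes, as for 63.9% of all genes tested.

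**Figure D1:**
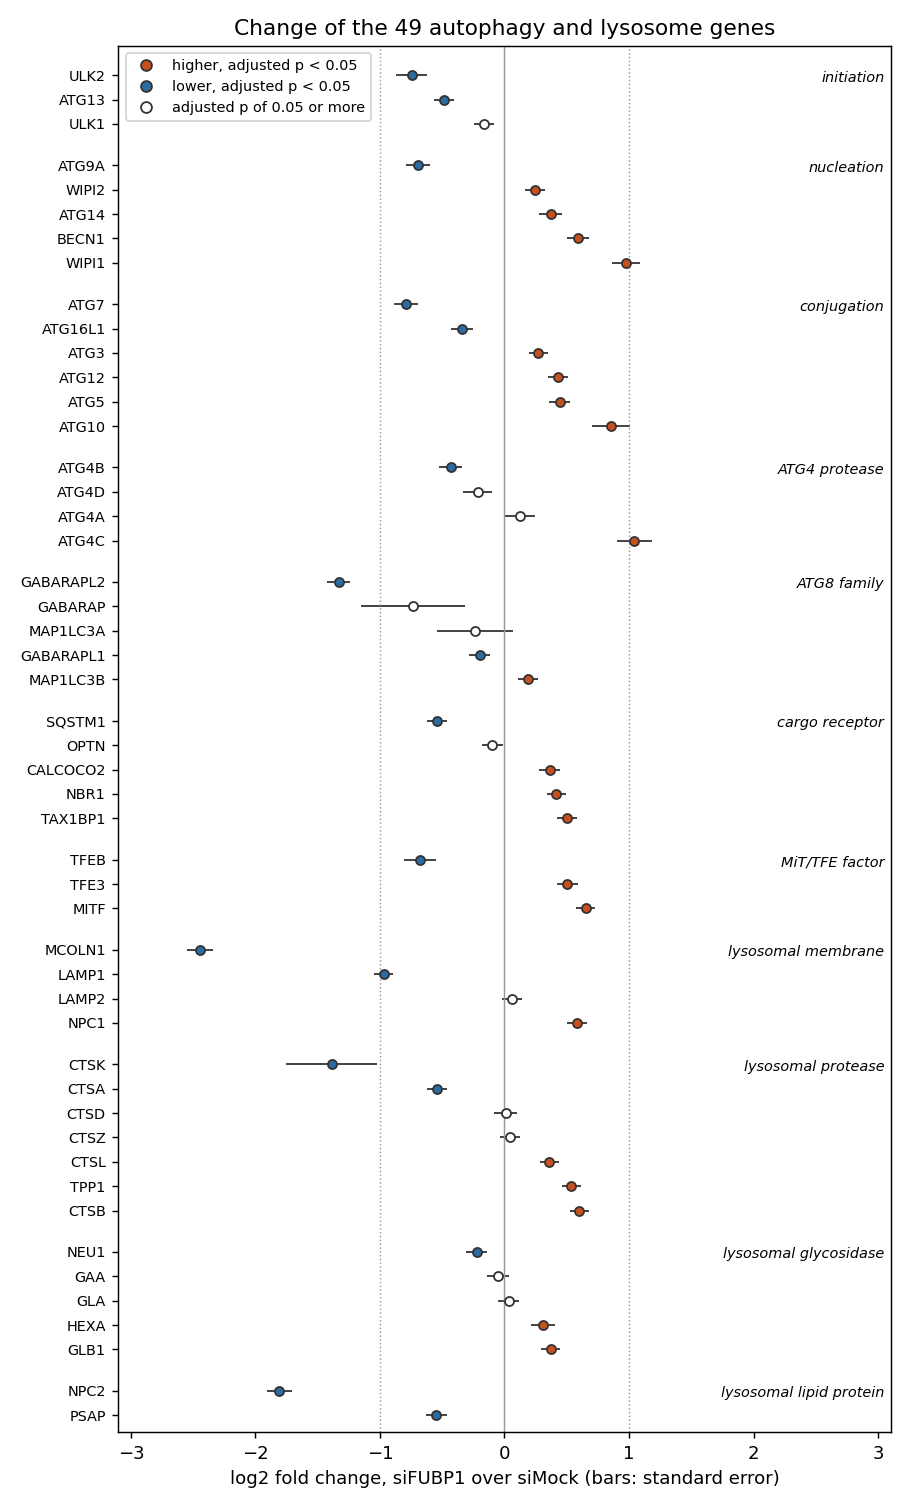
Log2 fold change of siFUBP1 over siMock (x axis) for each of the 49 genes (y axis), grouped by role, from 3 samples a group. Bars are standard errors, filled points passed an adjusted p of 0.05 and dotted lines mark 2-fold. MCOLN1, NPC2, CTSK and GABARAPL2 lie left of the lower line, ATG4C lies just right of the upper line, and most roles hold genes on both sides of 0.

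The largest difference was the fall of MCOLN1, the calcium channel mucolipin-1 of the lysosomal membrane. It was at 56.7, 53.4 and 53.8 CPM in the siMock samples and at 10.3, 8.71 and 11.1 CPM in the siFUBP1 samples. All 3 siFUBP1 samples were thus far below all 3 siMock samples, with means of 54.7 ± 1.81 and 10.04 ± 1.22 CPM (SD, n = 3). On the log2 scale the difference was -2.44 (SE 0.105, edgeR adjusted p = 3.18e-16), and it lay between -2.52 and -2.06 over the 16 other settings tried. The gene (ENSG00000090674) spans chr19:7522626-7534009 on the plus strand of GRCh38. A neighbouring gene model, AC008878.2, shares 4.27% of its exonic length and had a count of 0 in every sample.

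NPC2, the soluble lysosomal protein that hands cholesterol to NPC1, fell next most. It was at 171, 154 and 167 CPM in siMock and at 52.9, 37.7 and 49.7 CPM in siFUBP1. Every siFUBP1 sample was far below the lowest siMock sample, with a log2 fold change of -1.81 (SE 0.0991, adjusted p = 1.85e-13). Its partner NPC1, the cholesterol transporter of the lysosomal membrane, moved the other way. NPC1 was at 185, 222 and 204 CPM in siMock and at 311, 319 and 286 CPM in siFUBP1, again without overlap (log2 fold change 0.58, SE 0.0813, adjusted p = 7.89e-07).

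LAMP1 and LAMP2 are the abundant, heavily glycosylated proteins of the lysosomal membrane. LAMP1 was at 248, 245 and 242 CPM in siMock and at 123, 124 and 128 CPM in siFUBP1. Its samples agreed closely within each group, and the siFUBP1 level was 51.0% of the siMock level (log2 fold change -0.97, SE 0.0737, adjusted p = 1.74e-11). LAMP2 was at 152 ± 6.63 CPM in siMock and 159 ± 13.8 CPM in siFUBP1 (SD, n = 3), and its groups overlapped (log2 fold change 0.06, SE 0.0792, adjusted p = 0.528).

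PSAP, the precursor of the saposins that activate sphingolipid breakdown, had the highest level of the 49 genes per length. On the RPKM scale (the CPM divided by the exonic length in kilobases) it was at 1050 ± 44.8 in siMock and 719 ± 22.7 in siFUBP1 (SD, n = 3). By count it was at 3526, 3437 and 3242 CPM in siMock and at 2335, 2401 and 2254 CPM in siFUBP1. The groups did not overlap (log2 fold change -0.55, SE 0.0848, adjusted p = 4.07e-06). PSAP made up 38.2 to 39.1% of all counts of the 49 genes in siMock and 29.9 to 30.7% in siFUBP1.

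The order of the other genes by RPKM began with the proteases CTSZ and CTSD, the receptor SQSTM1 and the proteases CTSL and CTSA. In siMock, CTSZ was at 161 ± 14.8, CTSD at 113 ± 13.4, SQSTM1 at 97.9 ± 6.58, CTSL at 68.9 ± 4.53 and CTSA at 62.3 ± 4.70 RPKM (SD, n = 3). Here CTSD and SQSTM1 did not differ beyond their spread, nor did CTSL and CTSA. Places in this order shifted with the knockdown: MCOLN1 went from place 26 to 42, NPC2 from 7 to 20, LAMP1 from 8 to 17, GABARAPL2 from 21 to 35 and WIPI1 from 30 to 19.

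Of the 7 lysosomal proteases, 3 rose, 2 fell and 2 did not pass the test. CTSB, a cysteine cathepsin, was at 158, 150 and 144 CPM in siMock and at 232, 238 and 215 CPM in siFUBP1. Every siFUBP1 sample was above every siMock sample (log2 fold change 0.60, SE 0.0763, adjusted p = 1.82e-07). TPP1, which removes tripeptides from the ends of proteins, and the cysteine cathepsin CTSL rose as well, by log2 fold changes of 0.54 and 0.36. CTSA, the protective protein of the enzymes GLB1 and NEU1, fell by 0.54 on the log2 scale.

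CTSK, the collagen-degrading cathepsin best known from osteoclasts, was close to the limit of the data, with 40, 24 and 28 counts in siMock and 9, 16 and 12 counts in siFUBP1. The siFUBP1 samples were all lower (log2 fold change -1.39, SE 0.365, adjusted p = 0.00189), but the standard error was the second largest among the 49 genes. The aspartic protease CTSD was at 352 ± 42.0 and 354 ± 34.7 CPM and the carboxypeptidase CTSZ at 328 ± 30.2 and 338 ± 13.7 CPM in siMock and siFUBP1 (SD, n = 3). Neither passed the test (adjusted p = 0.940 and 0.665). For CTSD, 41.7% of the exonic length is shared with another gene model on the same strand, AC068580.4, which had 10 to 52 counts per sample.

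Of the 5 glycosidases, GLB1 (beta-galactosidase) and HEXA (the alpha subunit of beta-hexosaminidase) rose by log2 fold changes of 0.37 and 0.31, and the sialidase NEU1 fell by 0.22 on the log2 scale, a call that was lost in 7 of 16 other settings. GAA (acid alpha-glucosidase) and GLA (alpha-galactosidase A) were at log2 fold changes of -0.05 and 0.03 and did not pass the test (adjusted p = 0.620 and 0.751). With the counts corrected for GC content and length, GAA was at 0.27 and past the threshold (adjusted p = 0.00145), as were CTSD at 0.21 (adjusted p = 0.00448) and CTSZ at 0.16 (adjusted p = 0.0349).

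**Figure D2:**
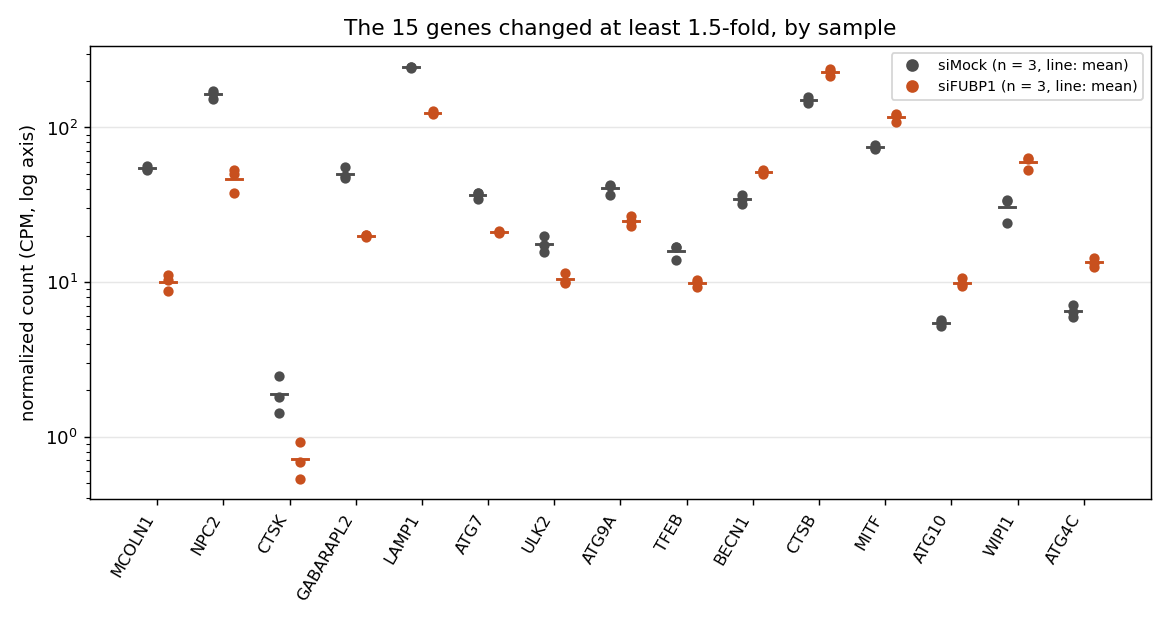
Normalized counts (CPM, log axis) in each of the 3 siMock and 3 siFUBP1 samples for the 15 genes with an adjusted p under 0.05 and a change of at least 1.5-fold, ordered by fold change. Points are samples and lines are group means; in none of these genes do the groups overlap, and the gap is widest for MCOLN1, at 53.4 to 56.7 CPM against 8.71 to 11.1 CPM.

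The 3 MiT/TFE factors did not move together. TFEB was at 16.8, 16.9 and 13.8 CPM in siMock and at 10.01, 10.4 and 9.34 CPM in siFUBP1, and was lower in each siFUBP1 sample (log2 fold change -0.68, SE 0.129, adjusted p = 6.24e-05). TFE3 was at 142, 150 and 130 CPM in siMock and at 194, 224 and 182 CPM in siFUBP1, a rise without overlap (log2 fold change 0.51, SE 0.0842, adjusted p = 1.08e-05). MITF was at 74.1, 72.8 and 77.0 CPM in siMock and at 109, 123 and 120 CPM in siFUBP1, also without overlap (log2 fold change 0.65, SE 0.0780, adjusted p = 6.72e-08). Per length TFEB had the lowest level of the 3 factors, at 2.80 RPKM in siMock against 32.8 for TFE3 and 10.4 for MITF. The counts of the 3 factors together were 0.0211 to 0.0233% of all counts in siMock and 0.0318 to 0.0375% in siFUBP1. With the correction for GC content and length, the fall of TFEB was smaller, at -0.39 (adjusted p = 0.0051).

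The E-box that these factors bind was looked for in the RefSeq promoter windows of GRCh38.p14, from 250 bases before to 50 bases after each annotated start, and on both strands. Of the 49 genes, 42 had a window. The 7 without a window were ATG4D, CTSB, CTSK, HEXA, LAMP2, MAP1LC3A and PSAP, and their promoters were not searched. TCACGTGA was found in 5 of the 42 (11.9%: ATG3, CTSA, GAA, LAMP1 and MCOLN1), against 1.18% of 27305 genes with a window. The shorter TCACGTG, which the former contains, was found in 8 (19.0%) against 4.49%. The 27305 genes were not limited to protein-coding or tested genes. Since this E-box is known from promoters of lysosomal and autophagy genes, the choice of the 49 genes favours the higher shares. These shares are therefore no result of the knockdown. A match describes these letters and is no measurement of binding. The following stretches hold such matches upstream of the start of genes whose values are given here, with the match in capitals and the strand of the gene in parentheses. They are shown because MCOLN1 and LAMP1 were among the genes with the largest falls, while CTSA and GAA carry the same letters with a smaller fall and with no call. NPC2, CTSK and GABARAPL2 fell more than LAMP1. Of these, NPC2 and GABARAPL2 had a window without a match, and CTSK had no window. Upstream matches of ATG3 and ATG14, which rose, of NEU1, which fell, and of CTSD, without a call, are not printed.
MCOLN1, chr19:7522567-7522623 (+): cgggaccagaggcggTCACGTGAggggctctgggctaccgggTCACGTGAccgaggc
LAMP1, chr13:113297031-113297117 (+): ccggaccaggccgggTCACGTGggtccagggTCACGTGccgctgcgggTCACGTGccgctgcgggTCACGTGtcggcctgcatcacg
LAMP1, chr13:113297195-113297238 (+): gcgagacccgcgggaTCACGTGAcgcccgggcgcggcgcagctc
CTSA, chr20:45891277-45891331 (+): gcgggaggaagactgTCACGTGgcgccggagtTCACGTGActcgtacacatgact
GAA, chr17:80101489-80101526 (+): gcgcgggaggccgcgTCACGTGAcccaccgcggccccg
GAA, chr17:80101534-80101571 (+): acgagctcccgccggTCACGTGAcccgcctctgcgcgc

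In MCOLN1 the matches begin 42 and 15 bases before the start. LAMP1 held 6 copies of the core CACGTG in its windows, of which 5 are in the stretches printed. Of the 5 genes with TCACGTGA, ATG3 rose, CTSA, LAMP1 and MCOLN1 fell and GAA did not pass the test, with a median log2 fold change of -0.54. Of the 8 genes with TCACGTG, which include these 5, 2 rose and 4 fell, with a median of -0.14. Of the 34 genes with a window but no TCACGTG, 17 rose and 11 fell, with a median of 0.16. Among all 229 tested protein-coding genes with TCACGTGA, 73 rose and 74 fell, with a median of -0.02. Among 12 genes with TCACGTGA in the lists of related genes described after the 49 genes, 4 rose and 5 fell, with a median of -0.21.

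The initiation genes held no riser. ULK2, a kinase related to ULK1, was at 17.3, 15.7 and 19.7 CPM in siMock and at 10.1, 9.86 and 11.5 CPM in siFUBP1, lower in every siFUBP1 sample (log2 fold change -0.75, SE 0.127, adjusted p = 1.52e-05). ATG13, the adaptor of the kinase complex, fell by 0.48 on the log2 scale (adjusted p = 8.28e-06). ULK1 was at 178 ± 16.2 CPM in siMock and 159 ± 12.9 CPM in siFUBP1 (SD, n = 3) and did not pass the test (log2 fold change -0.17, adjusted p = 0.0878). Its call and its direction depended on the setting. It was past the threshold and lower without the third siMock sample (-0.23, adjusted p = 0.0281) and without the second siFUBP1 sample (-0.22, adjusted p = 0.0362), and past it and higher with the correction for GC content and length (0.18, adjusted p = 0.0104).

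Of the 5 nucleation genes, 4 rose and 1 fell. WIPI1, which binds the lipid made at the growing membrane, was at 33.8, 24.0 and 33.6 CPM in siMock and at 63.4, 53.2 and 62.6 CPM in siFUBP1. In both groups the second sample was the lowest, and the groups were well apart (log2 fold change 0.97, SE 0.112, adjusted p = 1.05e-07). For WIPI1, 24.3% of the exonic length is shared with ARSG on the opposite strand, which had 276 to 330 counts per sample. BECN1, the core of the lipid kinase complex, was at 34.4, 32.1 and 36.8 CPM in siMock and at 50.3, 52.2 and 53.2 CPM in siFUBP1 (log2 fold change 0.59, SE 0.0883, adjusted p = 2.28e-06). All siFUBP1 samples of BECN1 were higher than its siMock samples. BECN1 shares 12.4% of its exonic length with CNTD1 on the opposite strand, which had 24 to 40 counts per sample. PSME3, also on the opposite strand, shares 4.68% of that length and was counted more often than BECN1 in every sample. PSME3 went from 2917, 3082 and 2899 counts (siMock) down to 1134, 1245 and 1227 counts (siFUBP1), while BECN1 rose. The part of these overlaps in the BECN1 counts was not tested. ATG14, which directs that complex to autophagy, and WIPI2, which recruits ATG16L1, rose by log2 fold changes of 0.37 and 0.25.

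ATG9A, the lipid scramblase carried on vesicles to the forming membrane, was the nucleation gene that fell. It was at 42.0, 36.5 and 42.4 CPM in siMock and at 26.6, 23.1 and 24.9 CPM in siFUBP1. The groups did not overlap (log2 fold change -0.70, SE 0.0967, adjusted p = 7.58e-07). A gene model on the same strand, AC068946.2, shares 38.8% of its exonic length and had 2 to 7 counts per sample.

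Of the 6 conjugation genes, 4 rose and 2 fell. ATG7 is the E1-like enzyme that activates both ATG12 and the ATG8 proteins. It was at 34.3, 37.4 and 37.9 CPM in siMock and at 21.4, 21.2 and 20.6 CPM in siFUBP1. All its siFUBP1 samples were lower (log2 fold change -0.79, SE 0.0946, adjusted p = 6.43e-08). For ATG7, 18.1% of the exonic length is shared with VGLL4 on the opposite strand, which had 497 to 727 counts per sample. ATG10, the E2-like enzyme for ATG12, was at 5.70, 5.18 and 5.51 CPM in siMock and at 9.65, 9.40 and 10.5 CPM in siFUBP1, with all siFUBP1 samples higher (log2 fold change 0.85, SE 0.152, adjusted p = 2.69e-05). ATG3, the E2-like enzyme for the ATG8 proteins, rose by a log2 fold change of 0.27. The joined pair ATG12 and ATG5 rose by 0.43 and 0.44, and ATG16L1, which places them on the membrane, fell by 0.34 on the log2 scale.

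The ATG4 proteases cut ATG8 proteins before their conjugation and free them from lipid afterwards. ATG4C was at 6.37, 7.12 and 5.96 CPM in siMock and at 14.4, 12.5 and 13.3 CPM in siFUBP1, so that each siFUBP1 sample was above each siMock sample (log2 fold change 1.04, SE 0.141, adjusted p = 4.97e-07). With the correction for GC content and length it was at 0.76 and no longer beyond 2-fold. ATG4B fell by 0.43 on the log2 scale (adjusted p = 0.000175), and ATG4A and ATG4D, at 0.12 and -0.21, did not pass the test (adjusted p = 0.393 and 0.115).

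Among the 5 ATG8 genes, GABARAPL2 stood apart. It was at 55.5, 47.3 and 48.2 CPM in siMock and at 19.5, 20.3 and 20.1 CPM in siFUBP1. The siFUBP1 samples lay close together and below all siMock samples (log2 fold change -1.33, SE 0.0953, adjusted p = 5.56e-12). GABARAPL1 was at 81.7, 75.9 and 75.1 CPM in siMock and at 66.9, 74.7 and 61.2 CPM in siFUBP1. Its groups nearly touched (log2 fold change -0.20, SE 0.0851, adjusted p = 0.0471), and it missed the threshold in 10 of 16 other settings.

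MAP1LC3B, the LC3 protein most used as an autophagosome marker, was at 122, 104 and 116 CPM in siMock and at 125, 137 and 127 CPM in siFUBP1. The lowest siFUBP1 sample was only just above the highest siMock sample (log2 fold change 0.19, SE 0.0792, adjusted p = 0.0439), and the call was lost in 6 of 16 other settings. Its near-identical copy MAP1LC3B2 had 48 to 93 counts per sample, so reads of the pair may be divided between them.

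MAP1LC3A was at 3.68, 1.71 and 1.92 CPM in siMock and at 1.42, 2.48 and 2.29 CPM in siFUBP1, and its groups overlapped (log2 fold change -0.23, SE 0.305, adjusted p = 0.527). GABARAP was at 2.27, 0.647 and 2.05 CPM in siMock and at 0.533, 1.27 and 1.15 CPM in siFUBP1, also with overlap (log2 fold change -0.74, SE 0.416, adjusted p = 0.132). Without the second siMock sample GABARAP was at -1.12 and past the threshold (adjusted p = 0.0166). Its level is uncertain, since 30.5% of its exonic length is shared with AC120057.2 on the same strand, which had a count of 0 in every sample.

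Of the 5 cargo receptors, 3 rose and 1 fell. SQSTM1, which links ubiquitin-marked cargo to ATG8 proteins, was at 749 ± 50.4 CPM in siMock and 515 ± 13.7 CPM in siFUBP1 (SD, n = 3), a fall of the log2 level by 0.54 (SE 0.0795, adjusted p = 1.77e-06). For SQSTM1, 20.7% of the exonic length is shared with MRNIP on the opposite strand. NBR1, related to SQSTM1 in its domains, TAX1BP1 and CALCOCO2 rose by log2 fold changes of 0.42, 0.50 and 0.36. OPTN, an ubiquitin-binding receptor used for mitochondria and bacteria, did not pass the test (log2 fold change -0.10, adjusted p = 0.329), but did so with the correction for GC content and length (-0.17, adjusted p = 0.0443).

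Other genes of autophagy and the lysosome were taken from 7 lists with 153 genes, of which 141 could be tested. Of these, 38 rose, 67 fell and 36 did not pass the test, with a median log2 fold change of -0.17 (0.03 for the 49 genes). The share of all genes past the same threshold, 30.1% higher and 30.1% lower, also stands beside the counts of each list that follows. The 34 tested hydrolases outside the 49 genes leaned to lower values, with 9 higher, 20 lower and a median of -0.35. CTSS, a cathepsin of antigen-presenting cells, went from 46.9 ± 7.17 to 6.21 ± 0.882 CPM (SD, n = 3). Its log2 fold change was -2.92. The peptidases CTSC and SCPEP1 and the thioesterase PPT1 rose by 1.63, 0.93 and 1.31.

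The V-ATPase is the proton pump that acidifies lysosomes. Of its 21 tested subunit genes 6 rose, 11 fell and 4 did not pass the test, with a median of -0.29. ATP6V0E2, ATP6V0B and ATP6V1D fell most, with log2 fold changes of -2.27, -1.65 and -1.16. ATP6V0B was at 168 ± 7.03 CPM in siMock and 53.5 ± 2.58 CPM in siFUBP1 (SD, n = 3). The largest rises were those of ATP6V1E2, ATP6V1C1 and ATP6V1B2, at 1.34, 0.62 and 0.49.

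Genes of lysosomal fusion and tethering numbered 18, of which 4 rose and 10 fell, with a median of -0.31. The SNARE protein VAMP7, the lipid kinase scaffold VAC14 and the tethering subunit VPS18 fell most, with log2 fold changes of -1.33, -1.32 and -1.16, and VPS41, PLEKHM2 and STX7 rose by 0.81, 0.54 and 0.47. Of 26 other genes of the lysosomal membrane and of sorting, 5 rose and 10 fell (median -0.17). The sorting receptor SORT1, the phosphotransferase subunit GNPTG and the channel TPCN1 fell, at -1.63, -1.13 and -1.02, and TMEM192, OSTM1 and GPNMB rose, at 1.42, 1.04 and 0.83.

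For the remaining 23 tested genes of the autophagy machinery the median was 0.14, with 9 higher and 7 lower. RB1CC1, the scaffold of the ULK1 complex, went from 64.7 ± 4.54 to 136 ± 10.1 CPM (SD, n = 3; log2 fold change 1.07), and NRBF2 and PLEKHM1 rose by 0.88 and 0.61. VAMP8, ATG16L2 and AMBRA1 were the largest falls there, at -1.56, -1.31 and -0.93. Among 17 other receptors and related genes of selective autophagy, 5 rose and 7 fell (median -0.01). NCOA4 (the ferritin receptor), PINK1 and WDFY3 were at -1.05, -1.03 and -0.91, and CCPG1, RTN3 and FUNDC1 at 0.93, 0.63 and 0.46. FUNDC1 was at 0.20 once GC content and length were corrected, and missed the threshold (adjusted p = 0.0528). Of the cystatins, inhibitors of cysteine cathepsins, only CST3 and CSTB could be tested, and both fell, with log2 fold changes of -2.65 and -0.32.

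**Figure D3:**
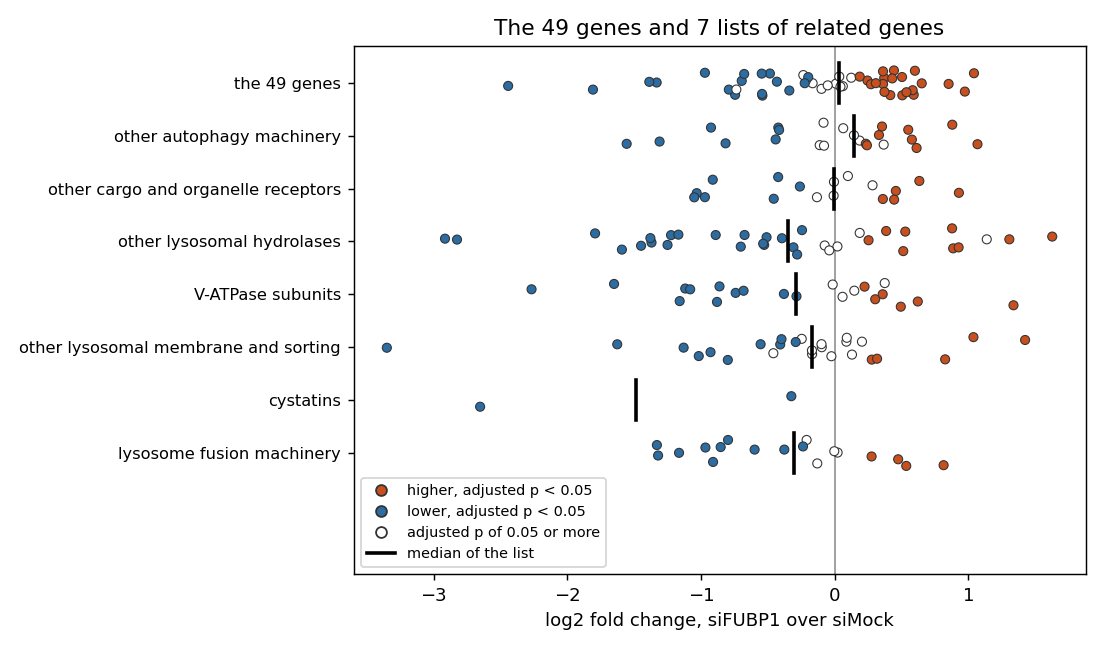
Log2 fold change of siFUBP1 over siMock (x axis) for the 49 genes and for each tested gene of 7 lists of related genes (rows), with a black bar at each median. Colours mark the direction of genes with an adjusted p under 0.05, the grey line is the median of all genes tested, and points are spread vertically for legibility. The medians of the hydrolases (-0.35), V-ATPase subunits (-0.29) and fusion genes (-0.31) lie below the grey line, and that of the 49 genes (0.03) lies near it; the leftmost point, LAPTM5, had at most 16 counts.

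The match of an siRNA's seed to a messenger RNA's 3′ untranslated region is a known source of unintended knockdown, so matches of 7 bases were counted for each of the study's 3 FUBP1 siRNAs. They were found in 8, 4 and 8 of the 49 genes for RNAi#1, RNAi#2 and RNAi#3, against 20.8%, 12.7% and 20.2% of 12589 genes. Only the seed of the antisense strand was used, and only the 3′ untranslated region of a single transcript per gene was searched. In these regions, of 214, 341 and 1251 bases, MCOLN1, NPC2 and LAMP1 had no match to any of the 3. Other sites were not searched, so unintended knockdown was not tested. GABARAPL2 had 1 match to RNAi#2 and CTSK 1 match to RNAi#1. Of the other genes that fell, ULK2 and ATG16L1 each had 1 match to RNAi#3, and SQSTM1 had 1 match to RNAi#2. Matches were also found in BECN1, ATG12, ATG4C, MITF, TPP1, CALCOCO2, ATG5, ATG10 and CTSB, which rose.

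The correction for GC content and length moved the log2 fold changes of the 49 genes by a median of 0.118 and by up to 0.35. The number called became 25 higher and 18 lower, beside 5009 higher and 4965 lower among all 16116 genes in that setting. The genes with the largest falls kept their direction and their call. MCOLN1 was then at -2.25, NPC2 at -1.95, GABARAPL2 at -1.53, CTSK at -1.57 and LAMP1 at -0.93.

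**Figure D4:**
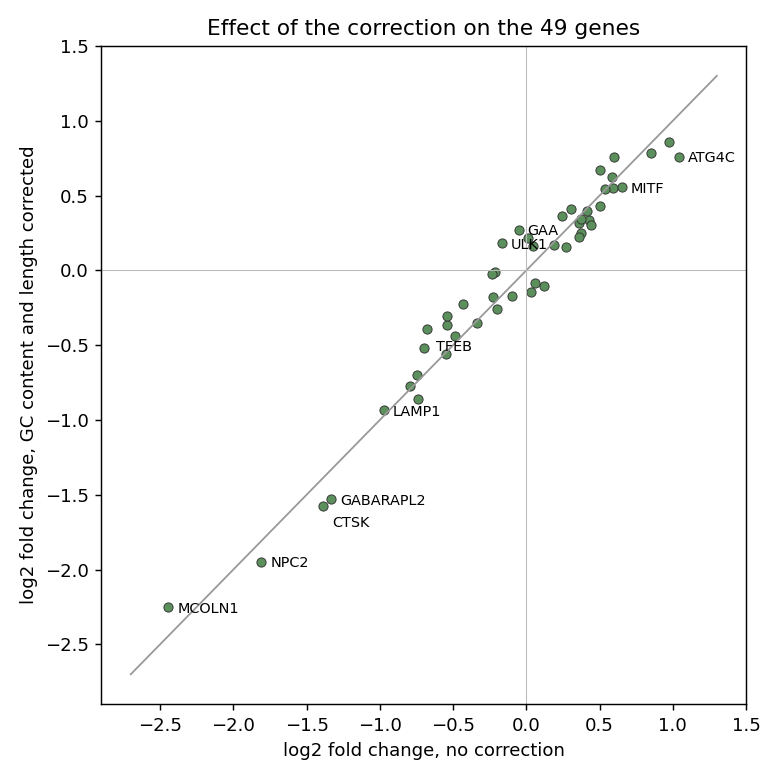
Log2 fold change of siFUBP1 over siMock for the 49 genes with the correction for GC content and length (y axis) against the value without it (x axis), with a grey line where both are equal. Most points lie near the line; ULK1 (-0.17 to 0.18) and GAA (-0.05 to 0.27) cross 0, and ATG4C drops from 1.04 to 0.76.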

How the data were processed

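Poly(A) RNA of 3 siMock and 3 siFUBP1 samples was sequenced by the authors with a kit that does not mark strand. Per the labels, the submitters' processing notes name HISAT2 2.0.5, StringTie 1.3.3b, featureCounts 1.5.0-p3 and DESeq2 1.16.1; the counting options are not given in the sources used here. The deposited table holds raw read counts per gene. For the deposited FPKM values, the authors divided each count by gene length and by a scaled library size. The deposited group columns, taken as normalized signal, and the authors' log2 fold changes and p-values of their own comparison were not used. Gene identifiers and positions match GENCODE 29 (GRCh38).

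Samples were grouped by their titles. The test was edgeR's robust quasi-likelihood test (version 4.0.16, R 4.3.3) after TMM scaling and a filter on low counts by group, with Benjamini-Hochberg adjustment over 16116 genes and a call at an adjusted p below 0.05, as in the study's methods. The script was tested on simulated data. No pair of samples was identical (chi-square per gene at least 5.87). The limit of 3 counts per sample given for a count of 0 covers counting error only. Standard errors come from the quasi-likelihood fit and include the spread between samples.

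The 49 genes and the 7 lists were chosen with earlier results of these data known, and the lists were written from memory. All 49 genes are named. Values in every sample are given for those changed at least 1.5-fold, the MiT/TFE and ATG8 genes, and NPC1 and PSAP, the 2 genes nearest below 1.5-fold (CTSA, SQSTM1 and TPP1 lie close behind PSAP). Of each list the 3 largest rises and falls are named (adjusted p below 0.05, mean of at least 50 counts, no overlap), except that some hydrolases this rule names are not reported here. LAPTM5 was named after its values were seen. The alternatives were other filters and scalings, DESeq2 (version 1.42.0), limma 3.58.1 on log2(FPKM + 1) and log2(FPKM + 0.1), a loess correction for GC content and length, a replicate block, each sample left out, and fold thresholds of 1.5 and 1.2.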

Additional observations from a re-analysis of the deposited data

How the results depend on the processing

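Of the 49 genes, 34 kept their direction and their side of the threshold in every setting tried, among them MCOLN1, NPC2, LAMP1, GABARAPL2, TFEB, TFE3 and MITF. Calls were lost in at least 1 setting for WIPI2, MAP1LC3B, GABARAPL1, HEXA and NEU1, and were gained in at least 1 for ULK1, GABARAP, OPTN, GAA, CTSD and CTSZ. The number of the 49 genes called (38) was 34 to 38 when 1 sample was left out, 15 at a change of at least 1.5-fold, 27 with glmTreat against 1.2-fold and 43 after correcting GC content and length. Beyond 2-fold (5 genes), it was 3 with limma on log2(FPKM + 1), which understates changes of low genes. WIPI1 crossed 2-fold in 5 settings and ATG4C in 4. The log2 fold changes that turned sign were these. With the GC content and length correction, ULK1 was at 0.18, ATG4A at -0.10, LAMP2 at -0.087, GAA at 0.27 and GLA at -0.14. With scaling by library size alone, which shifts the median of all genes by 0.10 and the share of higher calls from 50% to 58%, GAA was at 0.043. With 1 sample left out, the ranges that crossed 0 were -0.44 to 0.18 for MAP1LC3A, -0.012 to 0.11 for LAMP2, -0.087 to 0.079 for CTSD, -8.0e-05 to 0.12 for CTSZ, -0.13 to 0.0088 for GAA and -0.0075 to 0.13 for GLA. The cause was not tested. The deviations of same-numbered samples had correlations of -0.00469, 0.0171 and 0.123, and those of the other pairs -0.0918 to 0.0743. From 3 samples a group these values cannot settle whether the numbers pair the samples. With the replicate block 39 of the 49 genes were called, 21 higher and 18 lower, with ULK1 (-0.16, adjusted p = 0.0336) added. About 22 counts per sample for CTSK and GABARAP limit what can be said of them.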
